A study of Mus musculus with 26 samples.

Results

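The Usp17l family was measured through its 5 protein-coding mouse copies, Usp17la, Usp17lb, Usp17lc, Usp17ld and Usp17le. Its members were taken by gene symbol from a table of 55291 genes, and all 5 were among the 20953 genes with enough counts to be tested. They were chosen with earlier results of these data known. Reads came from poly(A)-selected RNA of mouse embryonic stem cells (ESCs) of the line R1, kept in LIF on gelatin, in 26 libraries that formed 13 groups of 2 replicates. The study asked how the transcription factor Dux, its ability to form nuclear condensates, and a super-enhancer at the Tdpoz genes bear on the switch of ESCs to a totipotent-like state. The controls were untreated wild-type cells (ESC) and cells given the solvent DMSO. Wild-type cells were treated with retinoic acid (RA, 0.53 μM for 48 h), with the splicing inhibitor pladienolide B (PlaB, 4 nM for 4 days), or with 4 μg/mL doxycycline for 24 h to overexpress Dux (Dux OE), Zscan4 (Zscan4 OE) or the Dux mutant R70A, designed not to phase separate (Dux R70A OE). Cells with Dux knocked down by shRNA (Dux KD) were given RA, PlaB or Zscan4 OE, and cells without the Tdpoz super-enhancer (SE KO) were given RA, PlaB or Dux OE. No untreated Dux KD or SE KO library was part of the data used here, so effects of either change were measured only within an induction. No group was labelled as given doxycycline without a transgene. Against ESC, effects of a transgene, of doxycycline and of making the line therefore cannot be told apart. The labels do not name the shRNA, the number of SE KO clones or the promoter of the transgenes, and they give the Dux KD Zscan4 OE libraries no treatment, so the doxycycline dose and time of that group are not stated. No time is given for DMSO, the control of both RA (48 h) and PlaB (4 days), so its match to either in culture time is not known.

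USP17 proteins are deubiquitinases: cysteine proteases that cut the small protein ubiquitin off other proteins and so can spare them from degradation or change their signalling. The mouse genes were first described in blood cells as immediate-early genes switched on by cytokines, and they lie in clusters of near-identical copies. The family is also known as part of the set of genes that are on in the 2C (2-cell) mouse embryo and in the rare ESCs that resemble it. Dux, a double-homeobox factor present at that stage, binds and activates many of those genes, and Zscan4 is a gene family of the same stage.

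All 5 copies lay on chromosome 7 (GRCm38), in a pair and a trio. Usp17ld (103249737 to 103252505, minus strand) and Usp17lc (103415072 to 103419880, plus strand) formed the pair. The trio comprised Usp17le (104768049 to 104777470, minus strand), Usp17lb (104840257 to 104842603, minus strand) and Usp17la (104857009 to 104862667, plus strand). Their coding sequences were identical at between 90.6% and 98.4% of aligned bases, with Usp17lc and Usp17ld the closest pair. The encoded proteins were 526 residues long for Usp17la, 468 for Usp17lb, 545 for Usp17lc, 545 for Usp17ld and 542 for Usp17le, and 83.5% to 96.9% of aligned residues were the same in a pair. The table also listed the pseudogene Usp17le-ps, which had 1 and 2 counts in the Dux OE libraries and no counts in the other 24.

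Because the copies moved together, the stretches upstream of their starts are shown to let their common sequence be seen. Of the 5 copies, 4 had an entry in the RefSeq promoter table (GRCm38.p6). Capitals mark TATAAA and CCAAT (printed as ATTGG where it lies on the other strand), each stretch is written 5′ to 3′ on the strand of its gene, and the coordinates precede the sequences. The Usp17la stretch is chr7:104856815-104856978 on the plus strand, that of Usp17lb is chr7:104842606-104842769 on the minus strand, that of Usp17lc is chr7:103416453-103416616 on the plus strand, inside the longer gene body listed in the count table, and that of Usp17ld is chr7:103252607-103252755 on the minus strand.
Usp17la: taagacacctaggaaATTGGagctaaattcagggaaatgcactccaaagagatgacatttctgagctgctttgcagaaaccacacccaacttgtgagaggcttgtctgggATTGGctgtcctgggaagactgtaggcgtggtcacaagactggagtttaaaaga
Usp17lb: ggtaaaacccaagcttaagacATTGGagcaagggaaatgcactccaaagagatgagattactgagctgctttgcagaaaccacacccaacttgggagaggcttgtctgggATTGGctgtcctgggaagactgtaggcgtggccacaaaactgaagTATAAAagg
Usp17lc: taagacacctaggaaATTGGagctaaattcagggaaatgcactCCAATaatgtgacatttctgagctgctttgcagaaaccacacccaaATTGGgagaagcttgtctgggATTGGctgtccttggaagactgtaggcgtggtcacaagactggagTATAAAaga
Usp17ld: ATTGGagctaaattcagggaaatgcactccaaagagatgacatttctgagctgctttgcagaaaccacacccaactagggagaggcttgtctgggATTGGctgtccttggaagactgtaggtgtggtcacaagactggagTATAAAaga

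The 4 promoters were identical at 91.7% to 96.8% of aligned bases in pairs (215 to 278 bases aligned, gaps and unaligned ends left out). They held 1 string of 29 bases in common, ctgagctgctttgcagaaaccacacccaa. TATAAA was found in 3 of the 4, Usp17lb, Usp17lc and Usp17ld, and in 13.6% of the 32851 promoters in the table, each from 250 bases before to 50 bases after a start. At the same place, 66 bases after the shared string, Usp17la held tttaaa, which differs from TATAAA as A2T, with positions counted from 1 at the 5′ end of the motif. CCAAT was found on either strand in 4 of 4 and in 37.4% of all promoters. No promoter of the 4 held ATTCAATCA or GATTNAATC, searched on both strands, against 0.183% and 0.268% of all promoters. Such matches describe letters in a window and nothing more.

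With copies this alike, how the reads were counted bears on every comparison between members. Read length and the handling of reads with more than 1 possible origin are not given in the sources used here. Of all windows of 100 bases along each transcript, 96.2% of those of Usp17la, 91.3% of Usp17le and 89.4% of Usp17lb had no exact copy in a transcript of another gene. Those shares were 67.7% for Usp17lc and 60.5% for Usp17ld. The levels of Usp17lc and Usp17ld are therefore less certain than those of the other three, whichever way shared reads were counted or dropped.

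**Figure D1:**
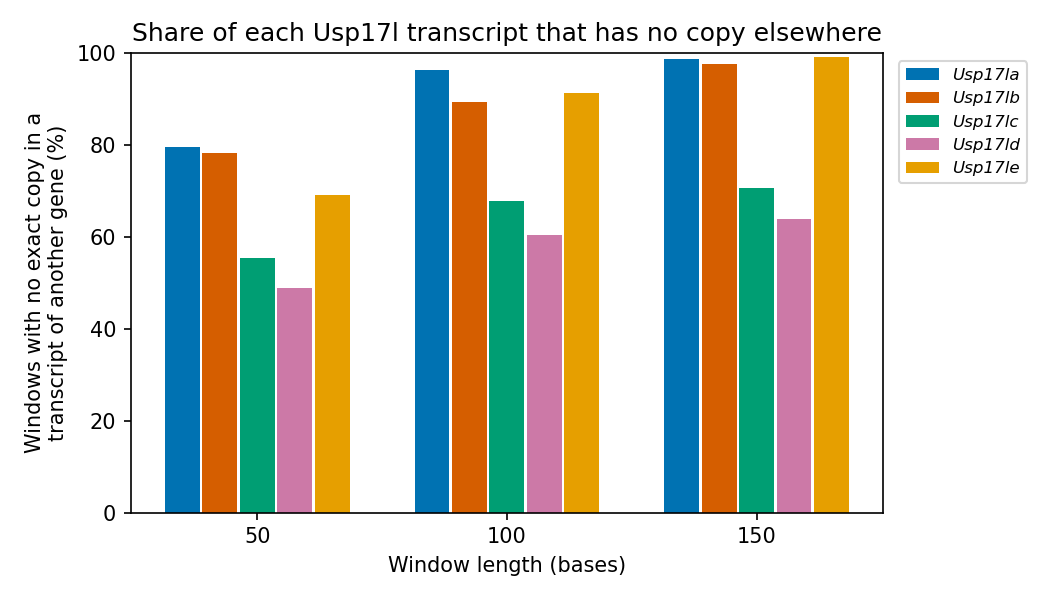
Share (%) of windows of 50, 100 and 150 bases along each copy's transcript that have no exact copy in a transcript of another gene, one bar per window length. At 50 bases the shares lie between 48.9% for Usp17ld and 79.6% for Usp17la, and at 150 bases Usp17la, Usp17lb and Usp17le exceed 97% while Usp17lc stays at 70.6% and Usp17ld at 63.9%.

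Libraries held 14401452 to 39402840 counts (median 18276934), and 3 counts, the floor used here for detection, came to 0.0796 to 0.226 CPM (counts scaled to a common library size with TMM factors). The title of SE KO RA replicate 1 says SE KO but its genotype label says WT. It was kept under its title alone. Its summed Usp17l level was 31.3 CPM, against 33 CPM in replicate 2 and 543 and 482 CPM in the RA libraries. That level is the readout tested below, so it cannot settle which label is right. Dux, listed as Duxf3, had 191 and 181 counts in PlaB against 1 and 0 in Dux KD PlaB, and 49 and 59 in RA against 16 and 6 in Dux KD RA. It had 27 and 17 counts in Zscan4 OE against 1 and 0 in Dux KD Zscan4 OE. It had 55 and 48 counts with overexpressed Dux and none with the R70A mutant, so it cannot serve as a check of the transgenes. All 8 ESC markers were above the floor in every group. In RA against DMSO 7 of the 8 were called lower and 5 of 6 primitive endoderm markers higher (summed level 83.2 to 86.5 CPM, against 8.83 to 10.7 in DMSO). In PlaB these calls were 6 lower and 4 higher (32.7 to 37.8 CPM), and in Dux OE against ESC no ESC marker and 1 endoderm marker, the latter lower, was called. Whether these cell-state changes had a part in the Usp17l levels was not tested. In bulk RNA, fewer expressing cells and less RNA per cell cannot be told apart. The study calls the replicates biological where it compares SE KO with wild-type cells under Dux OE and RA, and for the other groups no source used here says that they were separate cultures, so p-values measure the spread between these libraries, which may be technical.

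All 5 copies were low in untreated cells and were higher with RA, PlaB, Dux OE and Zscan4 OE. In ESC, Usp17lb was at 2.86 and 5.2 CPM, Usp17le at 3.98 and 2.53, Usp17la at 1.81 and 2.53, Usp17lc at 2.05 and 1.47, and Usp17ld at 0.498 and 0.799. Dux OE brought Usp17le to 528 and 553 CPM, its highest level in any group. In the same libraries Usp17lb was at 400 and 421 CPM, Usp17la at 297 and 306, Usp17lc at 254 and 273, and Usp17ld at 71 and 73.8. No Dux OE library overlapped an ESC library for any copy. How many of all genes were separated in this way was not counted. Here and below, such separation therefore only describes the libraries.

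PlaB and RA gave lower mean levels than Dux OE, though for Usp17lb with PlaB the difference was small and its direction turned when library size replaced the TMM factors (a log2 fold change of -0.25 became 0.04). With PlaB, Usp17lb reached 370 and 319 CPM and Usp17le 261 and 298, while Usp17la was at 72.1 and 61.1, Usp17lc at 65.7 and 50.3, and Usp17ld at 46.2 and 41.1. With RA, Usp17lb was at 194 and 162 CPM, Usp17la at 166 and 161, Usp17le at 118 and 104, Usp17lc at 33.9 and 27.1, and Usp17ld at 30.4 and 27.4. Both PlaB libraries lay below both RA libraries for Usp17la and above them for the other 4 copies. Zscan4 OE gave the weakest induction, with Usp17le at 22.7 and 20.7 CPM, Usp17lb at 16.9 and 14.8, Usp17la at 12 and 12.4, Usp17lc at 8.28 and 10.4, and Usp17ld at 4.27 and 4.94.

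**Figure D2:**
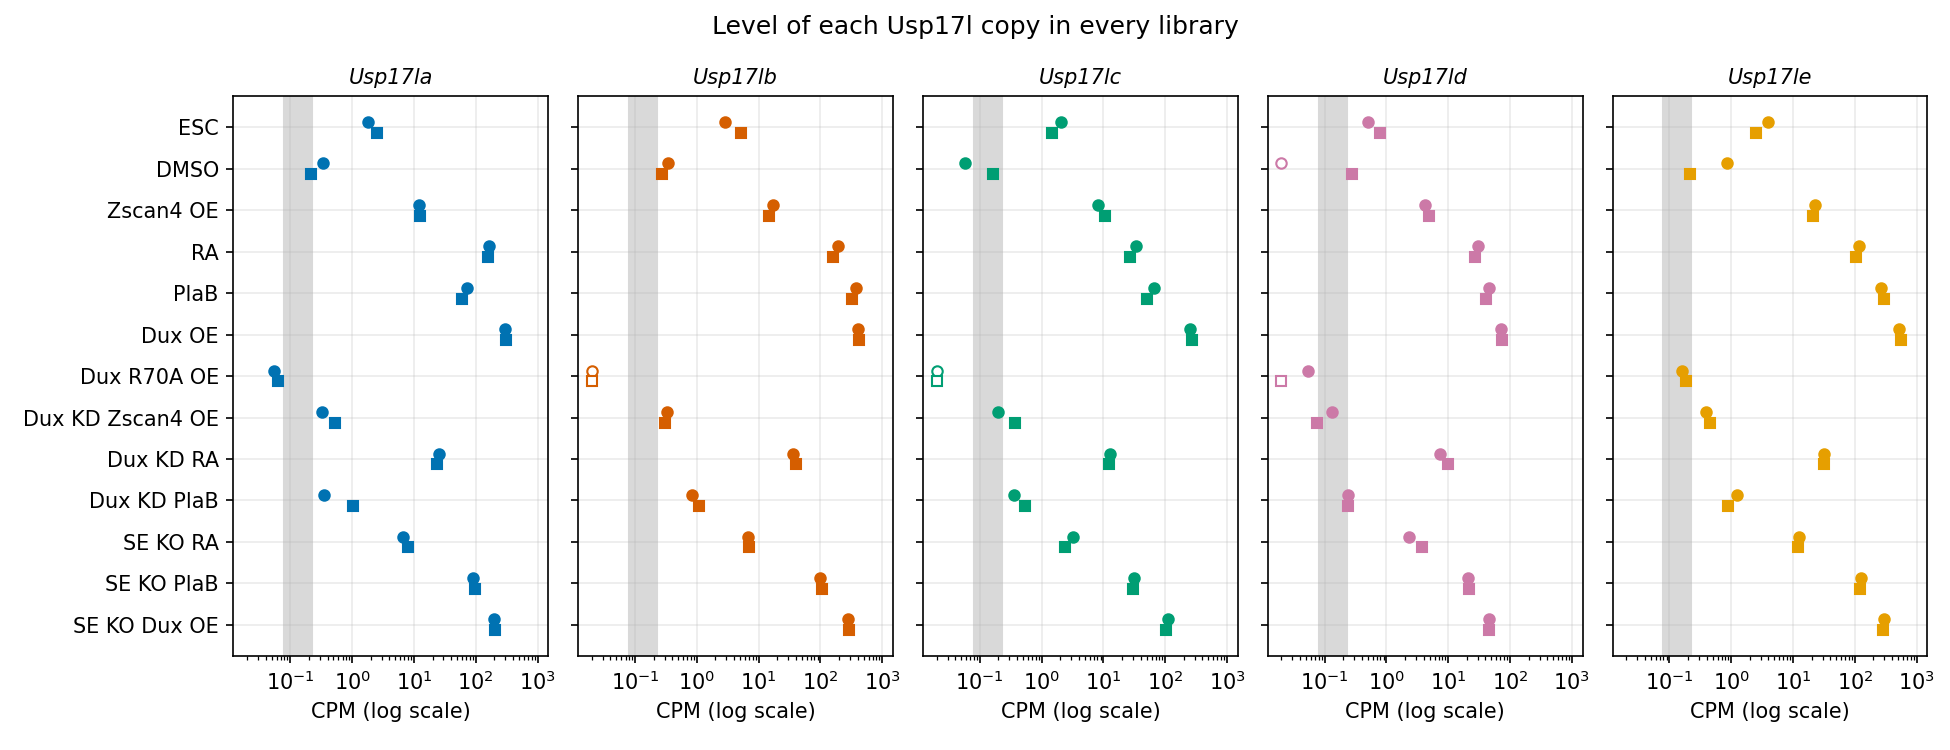
Level of each copy (CPM, log axis) in each library of the 13 groups, one panel per copy; circles are replicate 1, squares replicate 2, hollow symbols at the left edge libraries with 0 counts, and the grey band the range of 3 counts over libraries. In every panel Dux OE is highest (for Usp17lb against PlaB by TMM but not by library size) and Dux R70A OE lowest, below or inside the grey band, and the Usp17le points in Dux OE stand at 528 and 553 CPM.

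Summed over the copies, the level was 1590 ± 54 CPM in Dux OE (SD, n = 2 here and below), 928 ± 1.18 in SE KO Dux OE, 792 ± 32.2 in PlaB, 512 ± 43.5 in RA and 372 ± 3.52 in SE KO PlaB. It then dropped to 116 ± 2 in Dux KD RA, 63.8 ± 0.659 in Zscan4 OE, 32.1 ± 1.23 in SE KO RA and 11.9 ± 0.932 in ESC. The lowest 4 were Dux KD PlaB with 3.39 ± 0.538 CPM, Dux KD Zscan4 OE with 1.55 ± 0.26, DMSO with 1.37 ± 0.309 and Dux R70A OE with 0.26 ± 0.0123. Of the 12 neighbouring pairs in this order, 1 overlapped: Dux KD Zscan4 OE (1.36 to 1.73 CPM) and DMSO (1.15 to 1.59 CPM). For single copies, 1 to 3 of the 12 neighbouring pairs overlapped, and by TMM Dux OE was highest and Dux R70A OE lowest for every copy, where library size alone put Usp17lb higher in PlaB than in Dux OE.

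Per length (RPKM, CPM divided by the table's exon length in kilobases), Usp17le and Usp17lb led in Dux OE with 272 and 263 RPKM, and their libraries overlapped (266 to 278 and 256 to 270). Usp17la followed with 114 RPKM, Usp17lc with 107 and Usp17ld with 36.4. Under PlaB, Usp17lb led with 221 RPKM before Usp17le with 141, and Usp17la (25.1), Usp17lc (23.7) and Usp17ld (22) overlapped. Under RA, Usp17lb led with 114 RPKM, ahead of Usp17la (61.5) and Usp17le (55.9). From the highest to the lowest copy the level per length spanned 7.47-fold in Dux OE, 10-fold in PlaB and 9.19-fold in RA.

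Tests of induction were made against DMSO for RA and PlaB and against ESC for the transgenes. Genes were called at an adjusted p-value under 0.05 (Benjamini-Hochberg over all tested genes, edgeR quasi-likelihood F-test) and a log2 fold change of at least 1 in either direction. In RA against DMSO, 5 of 5 copies rose, beside 20.6% of all tested genes. The log2 fold changes were 9.16 for Usp17la (SE 0.2), 9.16 for Usp17lb (SE 0.21), 7.63 for Usp17ld (SE 0.32) and 7.7 for Usp17le (SE 0.2). Usp17lc was at 1 and 3 counts in DMSO and rose at least 182-fold over the floor. In PlaB against DMSO, 5 of 5 rose, beside 32.3% of all genes, with log2 fold changes of 10.11 for Usp17lb (SE 0.21), 9.03 for Usp17le (SE 0.19), 8.23 for Usp17ld (SE 0.31) and 7.87 for Usp17la (SE 0.21), and at least a 347-fold rise of Usp17lc. In these tests the adjusted p-values of the copies given by a log2 fold change (edgeR quasi-likelihood) ran from 6.24e-24 for Usp17le under PlaB to 9.73e-17 for Usp17ld under RA. These sizes rest on few DMSO counts: Usp17ld had 0 and 5, and without DMSO replicate 1 its log2 fold changes were 6.64 with RA and 7.18 with PlaB. Without DMSO replicate 2 its control held no counts, and the fitted 12.14 and 12.71 depend on the prior count. Usp17le had 15 and 4 counts in DMSO, and with either library left out its values ran from 7.02 to 8.9 with RA and from 8.32 to 10.17 with PlaB.

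In Dux OE against ESC, 5 of 5 copies rose, beside 7.38% of all genes. The changes were close to each other: log2 fold changes of 7.36 for Usp17le (SE 0.15), 7.21 for Usp17lc (SE 0.19), 7.12 for Usp17la (SE 0.16), 6.8 for Usp17ld (SE 0.25) and 6.68 for Usp17lb (SE 0.15). In Zscan4 OE against ESC, 5 of 5 rose, beside 7.25%, with 2.83 for Usp17ld (SE 0.33), 2.72 for Usp17le (SE 0.17), 2.5 for Usp17la (SE 0.18), 2.41 for Usp17lc (SE 0.23) and 1.98 for Usp17lb (SE 0.17). The adjusted p-values (edgeR quasi-likelihood) were at most 5.25e-18 in Dux OE and 1.43e-07 in Zscan4 OE. In CPM, the family sum rose 134-fold with Dux OE and 5.37-fold with Zscan4 OE over ESC, and 579-fold with PlaB and 374-fold with RA over DMSO.

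The size of the PlaB and RA changes depends on which control they are set against, because the copies were lower in DMSO than in ESC. In DMSO, Usp17la had 6 and 4 counts, Usp17lb 6 and 5, Usp17lc 1 and 3, Usp17ld 0 and 5, and Usp17le 15 and 4, and the summed level was 11.5% of that in ESC. In DMSO against ESC, 5 of 5 copies were called lower, beside 7.91% of all genes, with log2 fold changes of -3.68 for Usp17lb (SE 0.36), -2.92 for Usp17la (SE 0.39), -2.61 for Usp17le (SE 0.32) and -2.16 for Usp17ld (SE 0.68, adjusted p = 0.0111 by edgeR quasi-likelihood). Usp17lc was at least 10.5-fold lower. For Usp17le the value was -3.86 without DMSO replicate 1 and -1.94 without replicate 2. The call on Usp17ld was lost without ESC replicate 2 (adjusted p = 0.116) and without DMSO replicate 1 (adjusted p = 0.165). Set against ESC, RA gave log2 fold changes of 4.11 to 6.24 and PlaB of 4.95 to 6.43. The adjusted p-values were at most 2.5e-15 and 6.3e-18 (edgeR quasi-likelihood). Set against DMSO, the 4 copies above the floor there had log2 fold changes of 8.96 to 10.36 with Dux OE and 4.99 to 5.66 with Zscan4 OE, so the sizes of RA and PlaB over DMSO and of the transgenes over ESC are not on a common control.

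In Dux R70A OE the copies were at or under the floor. Whether the mutant was expressed cannot be read from these counts, as Duxf3 had none in this group. Usp17le had 3 and 3 counts, Usp17la 1 and 1, Usp17ld 1 and 0, and Usp17lb and Usp17lc none. Against Dux OE, 5 of 5 were called lower, beside 7.51% of all genes, by at least 3090-fold for Usp17le, 2350-fold for Usp17lb, 1730-fold for Usp17la, 1510-fold for Usp17lc and 415-fold for Usp17ld. They were also under untreated ESC: 5 of 5 were called lower, beside 6.72% of all genes, by at least 23.1-fold for Usp17lb, 18.7-fold for Usp17le, 12.4-fold for Usp17la, 10.1-fold for Usp17lc and 3.71-fold for Usp17ld (adjusted p = 0.000602 for Usp17ld, edgeR quasi-likelihood). ESC cells were given no doxycycline, so the mutant and doxycycline cannot be told apart in this difference. Set against DMSO in place of ESC, Usp17lb kept its call (adjusted p = 0.00514, edgeR quasi-likelihood). The other copies lost theirs, with adjusted p-values between 0.0542 and 0.254 in the same test. The share of all genes called against that control is not given here. Zscan4c went from 5.73 and 6.13 CPM in ESC to 811 and 810 with overexpressed Dux, and was at 0.107 and 0.0628 CPM with the mutant.

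**Figure D3:**
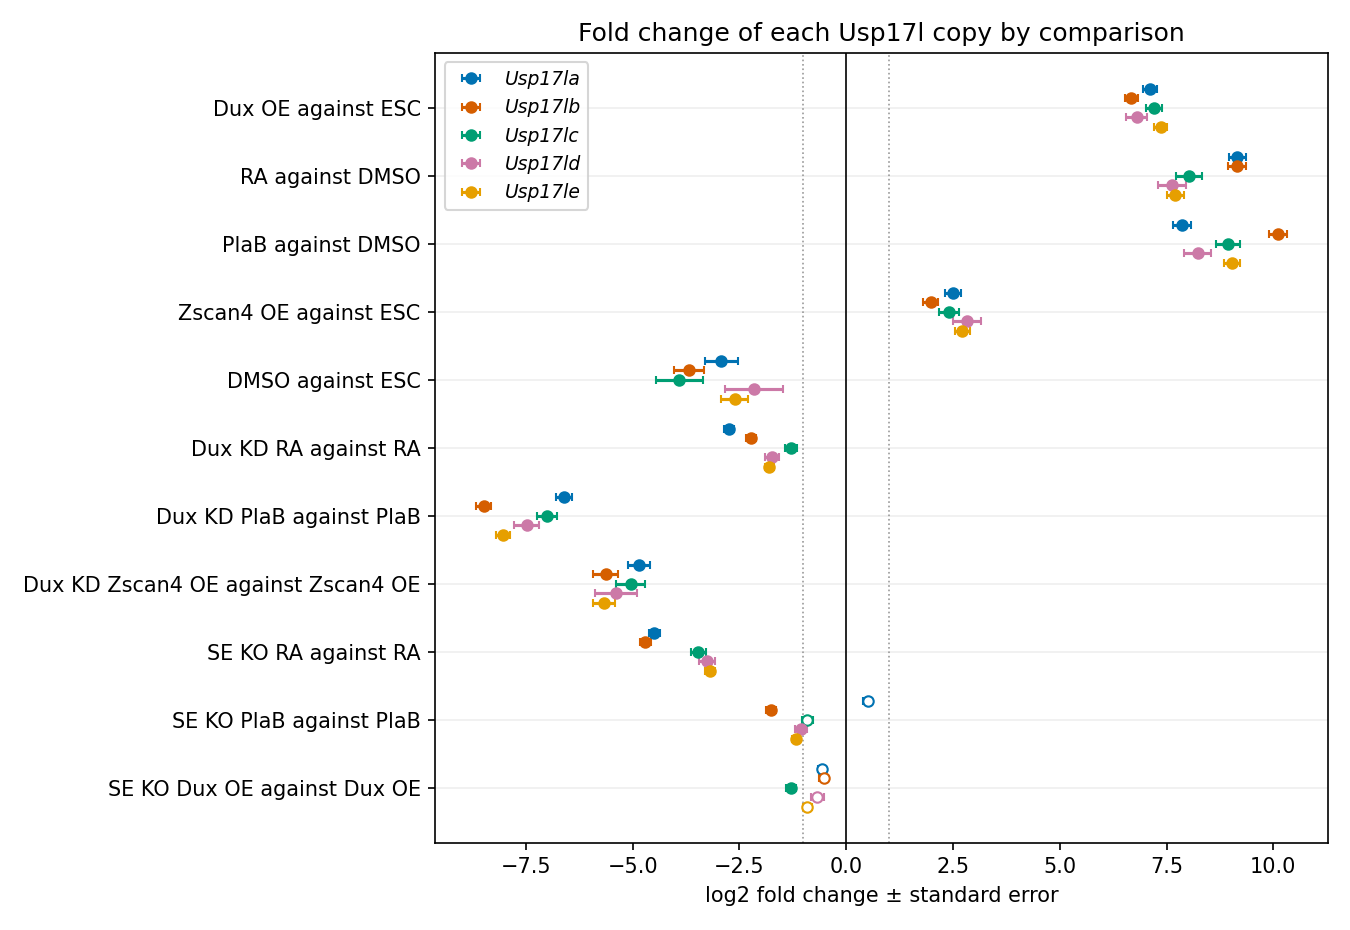
Log2 fold change of each copy (points, with bars of ± 1 SE) in 11 comparisons; filled points passed both thresholds, hollow points did not, and dotted lines mark -1 and 1. All copies are filled and to the right in the 4 inductions and to the left in the Dux KD comparisons, and the points spread most in SE KO PlaB against PlaB, from -1.76 for Usp17lb to 0.5 for Usp17la.

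Knockdown of Dux asked whether RA, PlaB and Zscan4 OE could raise the copies with less Dux. All 5 copies fell in each of the 3 inductions. No group was labelled as carrying a control shRNA, so less Dux and shRNA delivery cannot be told apart. With RA, Usp17la was at 25.5 and 23.5 CPM, Usp17lb at 36.5 and 39.7, Usp17lc at 12.6 and 12.2, Usp17ld at 7.46 and 9.83, and Usp17le at 32 and 31.8, each below both RA libraries and above both DMSO libraries. Usp17la fell furthest, with a log2 fold change of -2.74 (SE 0.11), followed by Usp17lb with -2.23 (SE 0.11), Usp17le with -1.8 (SE 0.11), Usp17ld with -1.74 (SE 0.17) and Usp17lc with -1.3 (SE 0.14). These 5 of 5 calls stood beside 4.53% of all genes, with adjusted p-values up to 9.46e-08 (edgeR quasi-likelihood). Against DMSO, 5 of 5 were still called higher in Dux KD RA, beside 22.0% of all genes.

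With PlaB, Dux KD libraries held 6 and 17 counts of Usp17la, 14 and 18 of Usp17lb, 6 and 9 of Usp17lc, 4 and 4 of Usp17ld, and 21 and 15 of Usp17le. The log2 fold changes against PlaB were -8.49 for Usp17lb (SE 0.18), -8.03 for Usp17le (SE 0.17), -7.48 for Usp17ld (SE 0.29), -7.01 for Usp17lc (SE 0.23) and -6.6 for Usp17la (SE 0.19), and 5 of 5 were called, beside 28.8% of all genes. Usp17la was at -6 without Dux KD PlaB replicate 1 and at -7.43 without replicate 2. In the same comparison 6 of 8 ESC markers were called higher (6770 to 6810 CPM summed, against 4580 to 5080), and of 6 primitive endoderm markers 4 were called lower and 1 higher (25.8 to 27.6 CPM against 32.7 to 37.8). Of all genes, 26.1% were called higher and 28.8% lower. The change of all genes from DMSO was also smaller: 7.53% were called higher and 4.14% lower in Dux KD PlaB, against 32.3% and 26.6% in PlaB. Of the 8 ESC markers, 6 were called lower than DMSO in PlaB and 0 in Dux KD PlaB. The part of the marker changes and of this smaller response in the loss was not tested. Against DMSO, 3 of 5 copies were called higher in Dux KD PlaB, beside 7.53% of all genes: Usp17la (1.27, SE 0.5, adjusted p = 0.0477), Usp17lb (1.61, SE 0.49, adjusted p = 0.0116) and Usp17lc (at least 2.67-fold, adjusted p = 0.0471), all by edgeR quasi-likelihood. This count ran from 0 to 2 when 1 library was left out, with 0 without Dux KD PlaB replicate 2 and 1 without DMSO replicate 2. With Zscan4 OE, 5 of 5 copies fell, beside 5.35% of all genes, to 5 and 7 counts of Usp17la, 5 and 4 of Usp17lb, 3 and 5 of Usp17lc, 2 and 1 of Usp17ld, and 6 and 6 of Usp17le. The log2 fold changes were -5.67 for Usp17le (SE 0.25), -5.63 for Usp17lb (SE 0.29), -5.04 for Usp17lc (SE 0.34) and -4.85 for Usp17la (SE 0.26), and Usp17ld was at least 21.9-fold lower. Dux KD Zscan4 OE was also under ESC for 5 of 5 copies, beside 2.55% of all genes, with 4 left without ESC replicate 2. The absence of a doxycycline label on that group applies to both comparisons. Zscan4c there was at 0.779 and 1.13 CPM, against 99.9 and 103 CPM in Zscan4 OE and 5.73 and 6.13 in ESC. These counts do not show that Zscan4 was overexpressed in that group, so less Dux and less Zscan4 cannot be told apart.

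In percent of the same induction without knockdown, the family sum was 22.6% with RA, 0.427% with PlaB and 2.43% with Zscan4 OE. By copy, the shares kept with RA ranged from 15% for Usp17la to 40.6% for Usp17lc, and those with PlaB from 0.276% for Usp17lb to 1.03% for Usp17la. Differences between the knockdown effects were tested as interaction terms. The knockdown effect was greater with PlaB than with RA for 5 of 5 copies, beside 26.6% of all genes, with differences in log2 fold change of -3.86 for Usp17la (SE 0.25) to -6.27 for Usp17lb (SE 0.23), and with Usp17la at -3.26 or -4.68 when 1 or the other Dux KD PlaB library was left out. It was also greater with Zscan4 OE than with RA for 5 of 5, beside 6.22% of all genes, by -2.11 for Usp17la (SE 0.35) to -3.87 for Usp17le (SE 0.32). Usp17ld was at the floor in Dux KD Zscan4 OE, and with its bound in place of the fitted fold its difference was -2.71 or lower. The adjusted p-values (edgeR quasi-likelihood) were at most 5.06e-13 for PlaB and 6.56e-05 for Zscan4 OE. In the Zscan4 OE contrast, less Dux and less Zscan4 cannot be told apart. Primitive endoderm markers summed to 110 to 111 CPM in Dux KD RA, against 83.2 to 86.5 in RA. Duxf3 was at 0.636 CPM in Dux KD RA against 2.45 in RA. It was at the floor in Dux KD PlaB (0.0295 CPM, against 8.72 in PlaB) and Dux KD Zscan4 OE (0.0324 CPM, against 1.33 in Zscan4 OE). Duxf3 was thus not lowered alike in the inductions, and the part of this in the differences was not tested. The change of all genes from DMSO differed too. With PlaB, 32.3% were called higher and 26.6% lower, and in Dux KD PlaB 7.53% and 4.14%. With RA these shares were 20.6% and 10.4%, and in Dux KD RA 22.0% and 9.90%. The part of this in the differences was not tested either.

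**Figure D4:**
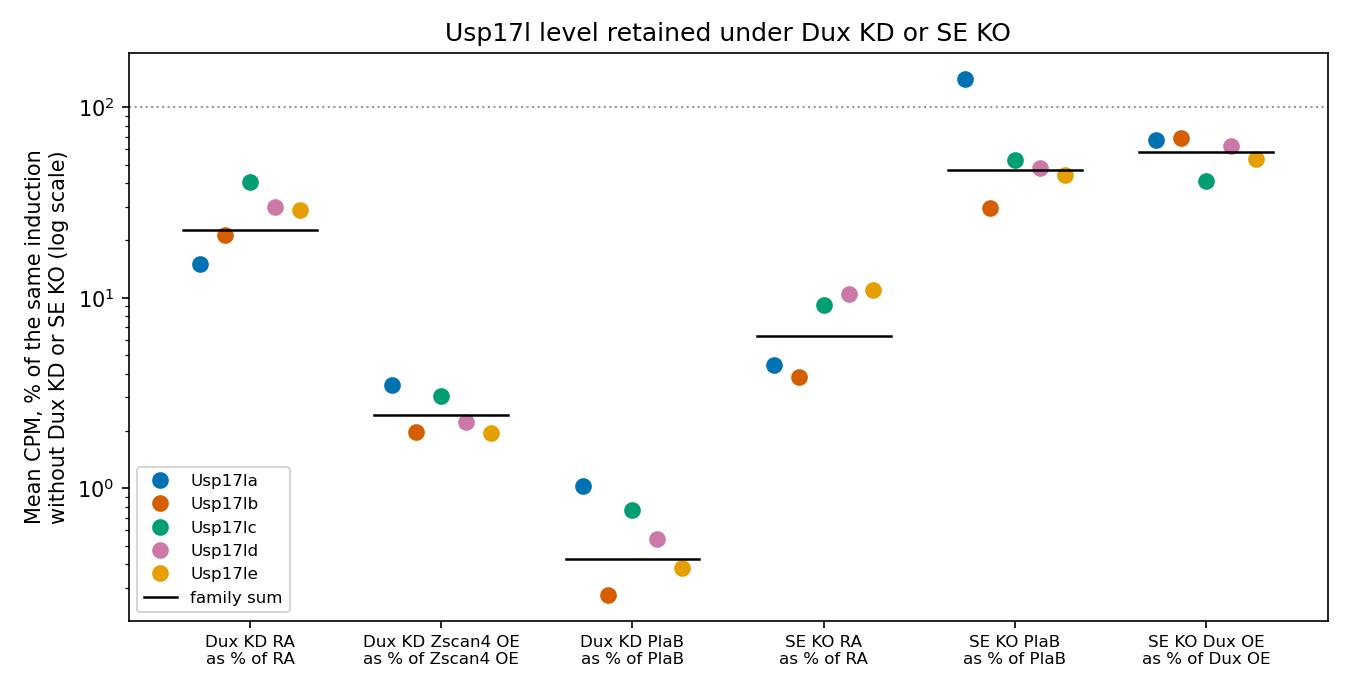
Mean CPM of each copy (points) in Dux KD and SE KO cells as a percentage of the mean in the same induction of wild-type cells (log axis), with the family sum as a black line. Points for Dux KD lie between 15% and 40.6% with RA and near or below 1% with PlaB, those for SE KO between 3.85% and 11% with RA, and Usp17la with SE KO PlaB (141%) is the single point above 100%.

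Without the Tdpoz super-enhancer the summed family level was 6.27% of its wild-type value with RA, 46.9% with PlaB and 58.4% with Dux OE. Duxf3 was lower there too. With RA it had 2 and 10 counts against 49 and 59, and with PlaB 38 and 45 against 191 and 181. With Dux OE it was at 1.46 and 1.28 CPM against 4.01 and 3.24. The part of Duxf3 in the lower Usp17l levels was not tested. In SE KO RA, Usp17la was at 6.56 and 7.91 CPM, Usp17lb at 6.84 and 6.89, Usp17lc at 3.16 and 2.41, Usp17ld at 2.28 and 3.72, and Usp17le at 12.4 and 12.1. Against RA, 5 of 5 copies fell, beside 11.0% of all genes, with log2 fold changes of -4.7 for Usp17lb (SE 0.13), -4.49 for Usp17la (SE 0.13), -3.46 for Usp17lc (SE 0.17), -3.25 for Usp17ld (SE 0.19) and -3.18 for Usp17le (SE 0.12). Without replicate 1, whose labels disagree, these were -4.69, -4.37, -3.66, -2.95 and -3.2 in the same order, and 5 of 5 were called. Against DMSO, 5 of 5 remained higher, beside 17.3% of all genes. Of the 8 ESC markers, 4 were called lower and 1 higher in SE KO RA against RA (3270 CPM summed in both libraries, against 4150 to 4170), and of 6 primitive endoderm markers 1 was called lower (57.7 to 61.8 CPM against 83.2 to 86.5). Of all genes, 11.0% were called lower and 6.57% higher. The part of the marker changes in the fall was not tested.

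With PlaB the copies parted. Usp17la was at 90.5 and 97.7 CPM in SE KO PlaB, above both PlaB libraries (72.1 and 61.1), with a log2 fold change of 0.5 (SE 0.1, adjusted p = 0.000105 by edgeR quasi-likelihood) that missed the size threshold and stayed positive, between 0.37 and 0.69, under every alternative run. Usp17lb, the leading copy with PlaB, was at 100 and 104 CPM against 370 and 319. It was called lower with Usp17le and Usp17ld, so that 3 of 5 copies fell, beside 26.1% of all genes, with log2 fold changes of -1.76 (SE 0.11), -1.18 (SE 0.1) and -1.06 (SE 0.15). Usp17lc, at 31.7 and 29.9 CPM against 65.7 and 50.3, changed by -0.91 (SE 0.13). The count of calls ran from 2 to 4 when 1 library was left out, with Usp17ld lost without PlaB replicate 1 and Usp17lc gained without PlaB replicate 2. Against DMSO, 5 of 5 copies were higher, beside 17.1% of all genes. In SE KO PlaB against PlaB, 5 of 8 ESC markers were called higher and 1 lower (4580 to 5040 CPM summed, against 4580 to 5080), and 3 of 6 primitive endoderm markers higher (126 to 136 CPM against 32.7 to 37.8). Of all genes, 25.9% were called higher and 26.1% lower. The part of the marker changes in these differences was not tested.

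With Dux OE, all 5 copies were lower without the super-enhancer and 1 of 5 was called, beside 3.84% of all genes. That copy was Usp17lc, at 111 and 104 CPM against 254 and 273, with a log2 fold change of -1.29 (SE 0.12, adjusted p = 2.19e-08 by edgeR quasi-likelihood). The other changes were -0.91 for Usp17le (SE 0.1), -0.68 for Usp17ld (SE 0.15), -0.57 for Usp17la (SE 0.099) and -0.53 for Usp17lb (SE 0.1), under the size threshold and with adjusted p-values of at most 0.000967. SE KO Dux OE libraries lay below the Dux OE libraries for every copy, a separation that was not counted over all genes. Against ESC, 5 of 5 copies were called higher, beside 9.02% of all genes. Fibroblast markers were higher in this group, with 5 of 5 tested called higher against ESC, beside the same 9.02%. Their summed level was 116 to 117 CPM against 9.77 to 60.6 in the other groups. Their part in the Usp17l values was not tested.

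Interaction terms gave the difference between these super-enhancer effects. The effect was weaker with Dux OE than with RA for 5 of 5 copies, beside 12.1% of all genes, by 4.17 for Usp17lb (SE 0.17), 3.92 for Usp17la (SE 0.16), 2.57 for Usp17ld (SE 0.24), 2.27 for Usp17le (SE 0.16) and 2.17 for Usp17lc (SE 0.21) in log2 fold change. Without the library with conflicting labels the range was 2.27 to 4.16. Between Dux OE and PlaB, 2 of 5 passed, and in opposite directions: Usp17lb by 1.23 (SE 0.15), beside 20.6% of all genes called higher, and Usp17la by -1.07 (SE 0.14), beside 24.5% called lower. Each direction thus held 1 of 5 copies, near those shares. For Usp17lc, Usp17ld and Usp17le the differences were -0.38 (SE 0.17), 0.38 (SE 0.21) and 0.27 (SE 0.14), with adjusted p-values of 0.0626, 0.123 and 0.114 (edgeR quasi-likelihood).

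The make-up of the family differed between inductions. Usp17la supplied 30.6% to 33.3% of all Usp17l counts in the RA libraries, 18.8% to 19.2% in Dux OE and 7.94% to 8.84% in PlaB, and 24.5% to 26.1% in SE KO PlaB. Usp17lb supplied 41.4% to 45.4% in PlaB, 33.7% to 35.8% in RA, 25.8% to 25.9% in Dux OE and 27.1% to 27.7% in SE KO PlaB. Usp17lc supplied 16.4% to 16.8% in Dux OE and 5.63% to 6.24% in RA. Libraries of these groups did not overlap for the copies named, and among the 8 groups plotted the shares rested on the fewest counts in SE KO RA, 1452 over both libraries.

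**Figure D5:**
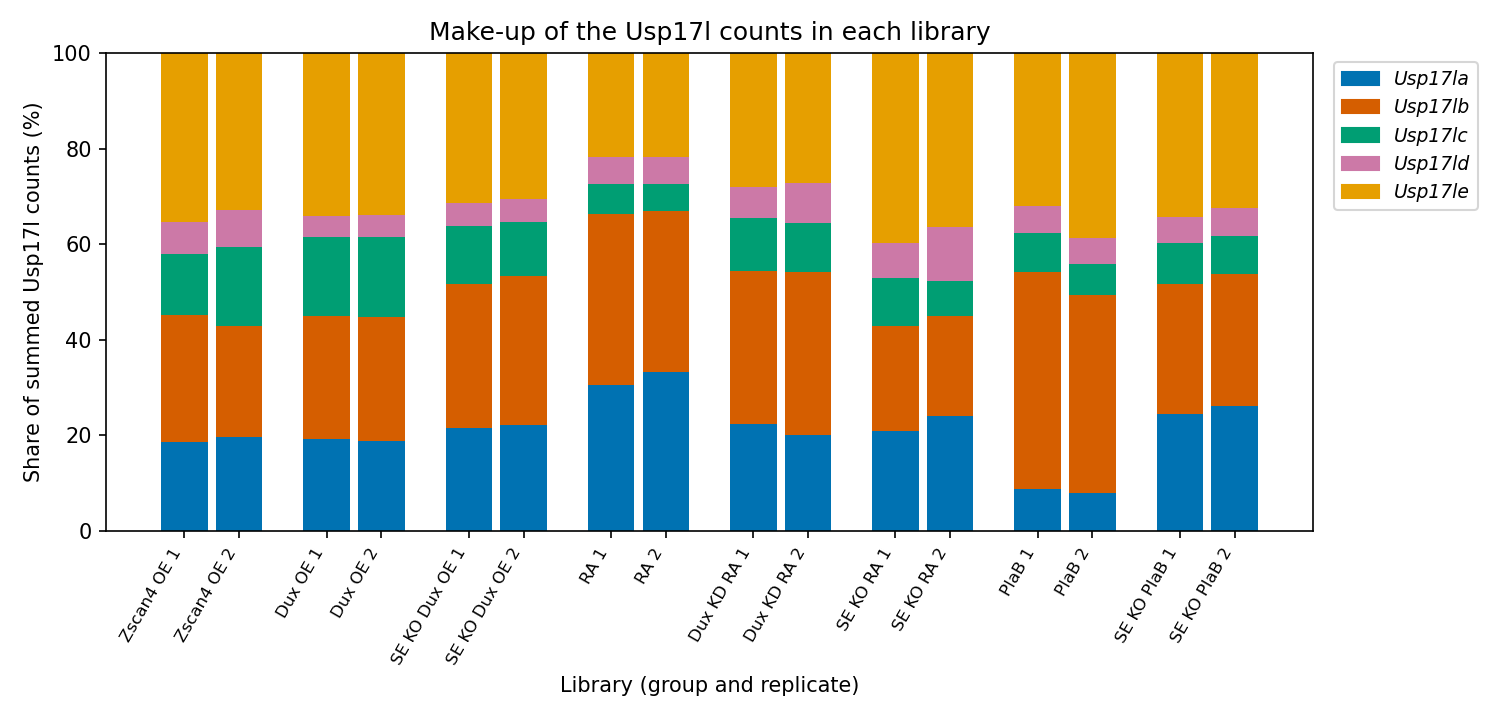
Share (%) of all Usp17l counts supplied by each copy, stacked to 100%, in both libraries of the 8 groups with 672 or more Usp17l counts in each library. Replicates look alike, while the Usp17la part runs from about 8% in PlaB to about 32% in RA and the Usp17lb part is widest in PlaB.

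Comparisons between inductions were added after these values had been seen, and PlaB, RA and Dux OE each enter more than 1 of them. They also differ in time and in solvent. In PlaB against Dux OE, 2 of 5 copies were called lower, beside 26.7% of all genes: Usp17la and Usp17lc, both with a log2 fold change of -2.18, while Usp17lb changed by -0.25. In RA against Dux OE, 4 of 5 were called lower, beside 10.7%, with Usp17lc at -3.11, Usp17le at -2.28, Usp17ld at -1.32 and Usp17lb at -1.2, and Usp17la changed by -0.88. In PlaB against RA, Usp17le was called higher (1.33, beside 27.9% of all genes) and Usp17la lower (-1.29, beside 30.0%), and Usp17lb, Usp17lc and Usp17ld changed by 0.95, 0.93 and 0.6. By RLE normalization and DESeq2 Usp17lb (1.08) and Usp17lc (1.06) passed too, for 4 of 5 calls, as they did without PlaB replicate 2. In Zscan4 OE against Dux OE, 5 of 5 were lower, beside 8.39%, by log2 fold changes of -3.97 to -4.81.

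The other ubiquitin-specific proteases, single-copy enzymes of the same class, were counted alongside. Of the 50 tested of 51 listed, 5 were called higher and 0 lower in Dux OE against ESC (7.38% and 2.12% of all genes), with a median log2 fold change of -0.01 against 0 over all genes. Usp26, a relative expressed in testis, rose by 2.6, from 1.61 to 9.81 CPM, and Usp43 by 1.45. Usp18, which removes the ubiquitin-like protein ISG15, went from 0 and 0 counts to 4 and 3. In PlaB against DMSO, 3 were called higher and 25 lower (32.3% and 26.6% of all genes), with a median of -0.98 against 0.22. Those higher were Usp50 (4.72), Usp26 (4.1) and Usp18, with 24 and 24 counts against 2 and 1, at least 6.73-fold.

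Genes of ubiquitin itself, reported substrates of USP17 and cytokine receptors were counted against the same shares of all genes, 7.38% higher and 2.12% lower in Dux OE and 32.3% and 26.6% in PlaB. Of the 4 ubiquitin genes, none was called in Dux OE and 1, Ubb, in PlaB, with 3380 against 696 CPM in DMSO and a log2 fold change of 2.28. Among 5 tested genes whose human proteins are reported USP17 substrates, 1 was called lower in Dux OE, Ddx58, an RNA sensor, with 13 against 43.5 CPM (-1.74). In PlaB, 2 were called higher and 2 lower, with Rce1, a protease of prenylated proteins, at 2.32, and Suds3, a subunit of a histone deacetylase complex, at -3.83, and with 7 and 17 counts of the RNA sensor Ifih1 against 0 and 0 in DMSO, at least 3.32-fold. Of 5 tested of 8 cytokine receptor genes, none was called in Dux OE and 2 were higher in PlaB, Il2rg by 1.41 and Csf2rb with 25 and 46 counts against 0 and 0, at least 9.86-fold. Haematopoietic markers summed to between 0.966 and 7.4 CPM over the 13 groups.

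Around the 5 copies, 96 other genes lay within 250 kb, 73 of them olfactory receptors, and 92 had too few counts to be tested, at no more than 0.471 CPM in any library. Of the 4 tested, 2 short predicted miRNA genes were called higher in Dux OE against ESC. Gm25774, on the plus strand inside the body of Usp17lc but with no exon base in common, had 36 and 89 counts against 0 and 0, at least 22.3-fold. Gm25171, 8378 bases from Usp17ld on the same strand, had 37 and 30 against 0 and 0, at least 12.2-fold. Whether reads of these entries come from Usp17l transcripts was not tested. The other 2, Gm6593 and Gm5900, changed by 0.43 (adjusted p = 0.565) and 0.16 (adjusted p = 0.737, edgeR quasi-likelihood).

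Over the 13 group means of log2 CPM, the copies followed each other with Pearson r of 0.985 to 0.997, and 76 of 20948 other genes had r above 0.95 with the family sum. The 5 most alike were Eif4a3l1 (r = 0.9888), AA623943 (0.9838), Gm8332 (0.9837), Gm21939 (0.98) and Zscan4e (0.9798). Eif4a3l1 was at 2.48 CPM in ESC, 474 in Dux OE, 165 in PlaB and 40.4 in RA, and Zscan4e at 5.35, 575, 659 and 106. These values describe 13 points that share libraries and scaling, and most of their range lies between uninduced and induced cells. The part of reads shared between near-identical copies in the r among copies was not tested.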

How the data were processed

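Poly(A) RNA was measured in 26 libraries, grouped by title labels. The authors deposited whole-number counts of reads per gene, not normalized, together with gene positions and exon lengths. The submitters' processing notes name FastQC, Trimmomatic, STAR, featureCounts, DESeq2 and mm10, without versions, and the strand setting, read length and handling of multi-mapping reads are not given in the sources used here. All columns of the table were used.

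Counts were fitted in edgeR 4.0.16 (R 4.3.3) with its quasi-likelihood F-test, all 13 groups being terms of the same model, with TMM normalization, the default filterByExpr filter and a prior count of 0.125. Adjusted p-values are Benjamini-Hochberg values over 20953 genes, and calls required values under 0.05 and log2 fold changes of 1 or more in size, since the methods name no test. Effects were compared as interaction contrasts. Since groups had 2 replicates, the spread was estimated largely from the whole set. Folds against a group with at most 3 counts in every library were taken against that floor per library and are lower bounds, and floors cover counting error only. The fit was tested on simulated data.

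Replicates differed by more than sampling noise (chi-square per degree of freedom 1.55 to 30.2), so each library counted as 1 replicate. The named genes were the 5 copies, the 5 genes most correlated with their sum, up to 3 neighbours within 250 kb, up to 3 called genes per list in Dux OE and in PlaB, and Duxf3 and Zscan4c. Members and lists were chosen with earlier results of these data known. Transcript and coding sequences came from the GENCODE M21 annotation of GRCm38 and promoters from RefSeq. Alternatives were another normalization, no low-count filter, a replicate block, DESeq2 1.42.0, fits restricted to the compared groups, the other control, and each library left out.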

Additional observations from a re-analysis of the deposited data

Results flagged for a closer look

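The effect of Dux knockdown and of super-enhancer loss differed between inductions for single copies, by interaction terms in the edgeR quasi-likelihood fit across all genes. Each value is a difference of log2 fold changes over 2 libraries per group. For the knockdown effect with PlaB minus that with RA, the values were -3.86 for Usp17la, -6.27 for Usp17lb, -5.71 for Usp17lc, -5.74 for Usp17ld and -6.23 for Usp17le. In this contrast 26.6% of all genes were called lower. Dux KD PlaB had 2445 genes called against DMSO, where PlaB had 12331. With Zscan4 OE minus RA the values were -2.11 for Usp17la, -3.4 for Usp17lb, -3.74 for Usp17lc, -3.64 for Usp17ld and -3.87 for Usp17le. Usp17ld had 2 and 1 counts in Dux KD Zscan4 OE, so its fitted value depends on the prior count, and the difference that the floor of 3 counts allows is -2.71 or lower. The group with knockdown and Zscan4 OE has no doxycycline label, and its Zscan4c level (0.779 and 1.13 CPM) was below that of ESC (5.73 and 6.13).

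The super-enhancer effect with Dux OE minus that with RA was 3.92 for Usp17la, 4.17 for Usp17lb, 2.17 for Usp17lc, 2.57 for Usp17ld and 2.27 for Usp17le. With Dux OE minus PlaB, Usp17la was at -1.07 and Usp17lb at 1.23, so these 2 copies parted in direction. The knockdown contrasts share the RA libraries with each other, and the super-enhancer contrasts share the Dux OE libraries.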

How the results depend on the processing

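Over 27 comparisons, 291 alternatives were run on the number of copies called, and 277 stayed within 1.5 times the count reported. For single copies, 1398 of 1449 alternatives kept direction and call, 31 lost a call, 18 gained one and 2 turned in direction. The 2 that turned were not called either way: Usp17lb in PlaB against Dux OE, from -0.25 to 0.04 by library size only, and Usp17ld in Dux KD PlaB against DMSO, from 0.74 to -0.2 without DMSO replicate 1 (-0.2 to 5.25 over the libraries left out). In Dux KD PlaB against DMSO the count of 3 went to 1 with RLE normalization, with DESeq2 and with only the groups compared, and to 0 to 2 with 1 library left out. For the super-enhancer effect of Dux OE minus PlaB the count of 2 went to 1 with RLE, library size only and DESeq2, and to 1 to 2 with 1 library left out. In PlaB against RA it rose from 2 to 4 with RLE and DESeq2, and to 2 to 4 with 1 library left out. In Dux R70A OE against ESC it went from 5 to 1 with DMSO as the control, which has fewer counts to fall from. Leaving out 1 library gave 2 to 4 calls in SE KO PlaB against PlaB, 2 to 3 in PlaB against Dux OE, and 4 to 5 in DMSO against ESC and in Dux KD Zscan4 OE against ESC. The causes were not tested. By CPM in place of level per length, Usp17lb was the highest copy in 4 groups and not 7, and Usp17le in 8 and not 6.

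Same-numbered replicates deviated together with r between -0.0473 and 0.0237, so they share only a number. With the replicate block, Usp17la lost its call in Dux KD PlaB against DMSO (adjusted p = 0.0548, edgeR quasi-likelihood), leaving 2 called, and no other call on a copy changed. Library size in place of TMM moved the share of higher calls from 66.5% to 76.8% in RA against DMSO, 62.3% to 76.6% in Zscan4 OE against ESC, 60.4% to 77.6% in Dux R70A OE against ESC, 44.8% to 58.9% in Dux R70A OE against Dux OE, 69% to 80.6% in Dux KD RA against DMSO and 59% to 71.1% in RA against Dux OE. Depth limits statements on copies in DMSO, in Dux R70A OE and in Dux KD cells given PlaB or Zscan4 OE, where a library held at most 21 counts of any copy.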
